A study of Homo sapiens with 9 samples.

Results

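The 10 genes followed here were taken from the 58336 genes in the deposited tables: FN1, THBS1, LAMC1, COL4A1, COL4A2, COL7A1, TNC, SPARC, COL1A1 and COL3A1. They were chosen by name, as structural and matricellular components of the extracellular matrix, with earlier results of these data known. Every one was found in the tables. The study sequenced RNA of HaCaT cells, a spontaneously immortalised line of human skin keratinocytes, in 9 samples that form 3 groups of 3. The control cells received no treatment. The treated cells received low-dose photodynamic therapy, that is 5-aminolevulinic acid at 0.5 mmol per litre, which cells turn into the photosensitiser protoporphyrin IX, and then illumination with red light (635 ± 5 nm, 3 J per square centimetre). After the light they were incubated for 12 h or for 48 h. Nothing in the labels describes cells that had the acid alone or the light alone, so the agent and the light cannot be told apart.

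The tables name their 9 libraries Nc1 to Nc3, A1 to A3 and B1 to B3. Nc was read as the control. A and B match no label and were read as the treated stems by elimination, since 3 control and 6 treated samples are described and 3 columns are named Nc. Which of A and B was taken at 12 h and which at 48 h is not stated, so the stems keep their letters and no result below is assigned to a time. If this reading of the columns is wrong, the comparisons still compare the named columns but not the treatments. Library totals ran from 15337296 to 18028419 counts. The keratinocyte markers were present in every library (9 of 9 genes with a count), with 5016 to 7991 counts of KRT5 but 2 to 20 of KRT14. The libraries Nc1, Nc2, A1, A2 and B3 held between 519 and 7550 counts of the globin HBB against 2 to 7 in the other 4, and each of these 5 libraries had a count for all 8 blood markers. The members' values were therefore also computed without these 5 libraries.

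The extracellular matrix of skin has several layers of structure. Under the basal keratinocytes lies the basement membrane, a sheet built on networks of laminin and type IV collagen, which anchoring fibrils of type VII collagen tie to the dermis. The dermis below is dominated by the fibrillar type I and type III collagens, made mainly by fibroblasts. Fibronectin links cells and collagen through integrins, and matricellular proteins such as thrombospondin 1, tenascin-C and SPARC act on cells and on matrix assembly rather than as scaffolds. Keratinocytes make many of these components themselves and make more of several of them in wounds.

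COL4A1 and COL4A2, which encode the α1 and α2 chains of the type IV collagen of basement membranes, are a head-to-head gene pair on chromosome 13. Their promoters are printed because the members lie back to back and were measured together. In the RefSeq sequences for GRCh38.p14, which run from 250 bases before to 50 bases after each start site, the start sites were 127 bases apart and 226 of the 300 bases were the same DNA read from opposite strands, shown in capitals. The COL4A1 window was chr13:110307108-110307407 on the minus strand and the COL4A2 window chr13:110307034-110307333 on the plus strand.
COL4A1: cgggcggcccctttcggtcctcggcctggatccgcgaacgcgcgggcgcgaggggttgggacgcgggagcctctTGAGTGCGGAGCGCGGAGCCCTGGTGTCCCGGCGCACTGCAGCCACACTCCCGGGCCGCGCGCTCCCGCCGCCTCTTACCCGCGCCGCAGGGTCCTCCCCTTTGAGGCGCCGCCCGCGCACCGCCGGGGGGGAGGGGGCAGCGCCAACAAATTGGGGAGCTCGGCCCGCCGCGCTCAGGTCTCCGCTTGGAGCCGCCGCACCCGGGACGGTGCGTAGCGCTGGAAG
COL4A2: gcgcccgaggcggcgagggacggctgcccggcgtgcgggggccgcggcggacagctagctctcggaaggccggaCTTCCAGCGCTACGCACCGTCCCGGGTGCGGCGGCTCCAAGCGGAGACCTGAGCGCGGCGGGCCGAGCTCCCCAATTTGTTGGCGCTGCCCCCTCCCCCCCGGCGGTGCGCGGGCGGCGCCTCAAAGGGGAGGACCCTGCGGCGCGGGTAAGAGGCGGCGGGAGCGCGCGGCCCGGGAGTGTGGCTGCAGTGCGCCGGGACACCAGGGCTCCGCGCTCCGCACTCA

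TNC and COL7A1 were the members whose calls against the control held when any single library was left out, and their promoters are shown for that reason, with matches to the motifs searched in capitals. The TNC window was chr9:115118108-115118407 and the COL7A1 window chr3:48595280-48595579, both on the minus strand of GRCh38.p14.
TNC: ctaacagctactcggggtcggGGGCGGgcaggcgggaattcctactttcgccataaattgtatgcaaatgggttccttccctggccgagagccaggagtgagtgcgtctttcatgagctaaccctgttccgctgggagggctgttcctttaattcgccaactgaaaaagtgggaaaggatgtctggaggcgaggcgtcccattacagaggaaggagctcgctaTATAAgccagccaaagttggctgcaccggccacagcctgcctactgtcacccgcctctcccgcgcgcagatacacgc
COL7A1: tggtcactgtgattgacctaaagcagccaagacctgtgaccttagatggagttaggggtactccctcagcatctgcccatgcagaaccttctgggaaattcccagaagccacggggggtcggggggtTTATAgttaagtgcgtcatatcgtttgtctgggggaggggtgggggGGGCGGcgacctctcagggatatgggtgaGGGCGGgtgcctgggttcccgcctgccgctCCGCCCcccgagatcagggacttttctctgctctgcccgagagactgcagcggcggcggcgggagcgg
Each motif was searched on both strands, and its background is the share of 35116 RefSeq promoters of this length that hold it. The TATA motif, written TATAA, had a background of 20.4%. For the CCAAT box, searched as those letters, it was 34.6%. The GC box, written GGGCGG, was found in 45.0%. The AP-1 motif, written TGANTCA, was found in 7.71% and in no member's window. The CRE motif, written TGACGTCA, was found in 1.85%. TNC had the TATA motif starting 27 bases before its start site on the gene's strand, and COL7A1 had it on the other strand 123 bases before its start site. COL7A1 held 3 GC boxes and TNC held 1. FN1 had the TATA motif 28 bases before its start site, 6 GC boxes, some of them overlapping, and the only CRE match among the 8 members for which a promoter was found. The shared stretch of COL4A1 and COL4A2 held 1 CCAAT box and 1 GC box. A match here is a run of letters and no evidence of binding. Promoters were matched for 8 of the 10 members, the others being COL1A1 and COL3A1.

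Of the 10 members, COL7A1 rose in stem A against the control and TNC fell in stem B against the control. Between the treated stems, TNC, COL7A1, COL4A1, COL4A2 and THBS1 were lower in B than in A. FN1 and LAMC1, both abundant, passed the test in none of the 3 comparisons, and neither did the scarce SPARC and COL1A1. COL3A1 did not pass the filter on low counts. A call here is an adjusted p under 0.05 in edgeR's quasi-likelihood test on the counts with Benjamini-Hochberg adjustment over the 13845 genes tested.

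**Figure D1:**
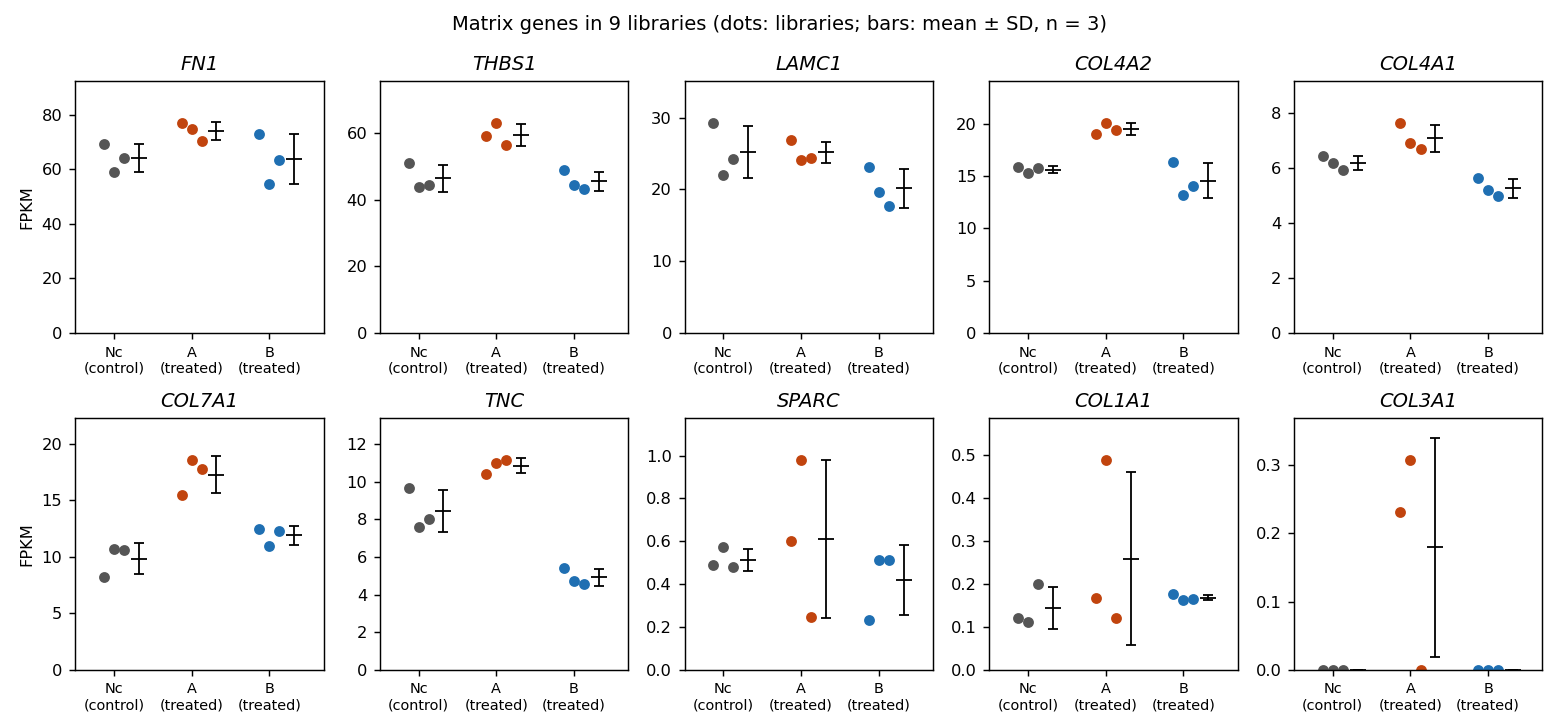
FPKM (vertical axis, from 0, a scale of its own in each panel) of the 10 members in each library of Nc, A and B, with dots for libraries and bars for mean ± SD (n = 3). COL7A1 lies highest in A, TNC lowest in B, and COL3A1 is above 0 in A1 and A2 alone.

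On FPKM, which divides counts by gene length and so allows levels of different genes to be set side by side, the order was FN1, THBS1, LAMC1, COL4A2 in all 9 libraries. FN1 averaged 64.1 ± 5.02 FPKM in the control (SD, n = 3) and THBS1 46.5 ± 4.09. LAMC1 followed at 25.2 ± 3.68 FPKM and COL4A2 at 15.6 ± 0.320. COL7A1 (9.83 ± 1.37), TNC (8.43 ± 1.11) and COL4A1 (6.19 ± 0.252) came next, and COL7A1 and TNC overlapped in the control. TNC held rank 5 of the 10 in Nc1, rank 6 in Nc2, Nc3 and all of A, and rank 7 in all of B. SPARC (0.514 ± 0.0513), COL1A1 (0.144 ± 0.0490) and COL3A1 (0) lay below. Together the members made up 0.213% ± 0.0257 of all counts in the control, 0.251% ± 0.0197 in A and 0.210% ± 0.0133 in B. FN1 alone supplied 52.1% of the members' counts in the control, a share not divided by gene length. FN1 has the longest annotation of the members, at 17315 bases.

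In A against the control, 1 of the 9 tested members was called higher and 0 lower, where 1.76% of all tested genes were called higher and 0.953% lower. The members' median log2 difference was 0.33, beside 0.01 over all genes. In 6 of the 9 (FN1, THBS1, COL4A1, COL4A2, COL7A1 and TNC) every A library exceeded every control library in CPM (counts scaled to the library's effective size), which held for 13.8% of all tested genes, and 0 members had the opposite order (12.3%). The columns numbered alike in A and Nc deviated together from the means of their stems, with correlations of 0.81, 0.58 and 0.51 over 9729 genes. Differently numbered columns of A and Nc gave -0.65 (Nc2 with A1) to 0.23 (Nc2 with A3). Because each stem's mean was subtracted first, high values for some pairs push others down, so this contrast is not separate evidence of pairing. Yet B2 correlated as highly with columns of another number, at 0.61 with A1 and 0.58 with Nc1. The labels do not tie a number to a column, so the pairing of A and Nc by number is read from the data. With the replicate block, in a fit of A and Nc alone chosen after the correlations were seen, 5 members rose: COL7A1, COL4A2, TNC, THBS1 and COL4A1. That fit called 16.5% of its 13216 genes higher and 18.3% lower (4601 genes), so calls were common in it.

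In B against the control, 0 of the 9 were called higher and 1 lower, where 6.12% of all genes were called higher and 7.24% lower. The members' median was -0.09, beside -0.00 over all genes. Groups did not overlap upward for 1 member (COL7A1) and downward for 2 (COL4A1 and TNC), against 16.3% and 14.6% of all genes. In B against A, 5 of the 9 were called lower and 0 higher, where 9.25% of all genes were called lower and 8.79% higher. The median there was -0.43, beside -0.02 over all genes. The same 5 and LAMC1, 6 in all, were lower in every B library than in every A library, as were 17.1% of all genes, and 0 were higher in every one (17.2%). A and B share the control libraries, and the third comparison reuses both, so the 3 sets of values are not independent of each other.

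**Figure D2:**
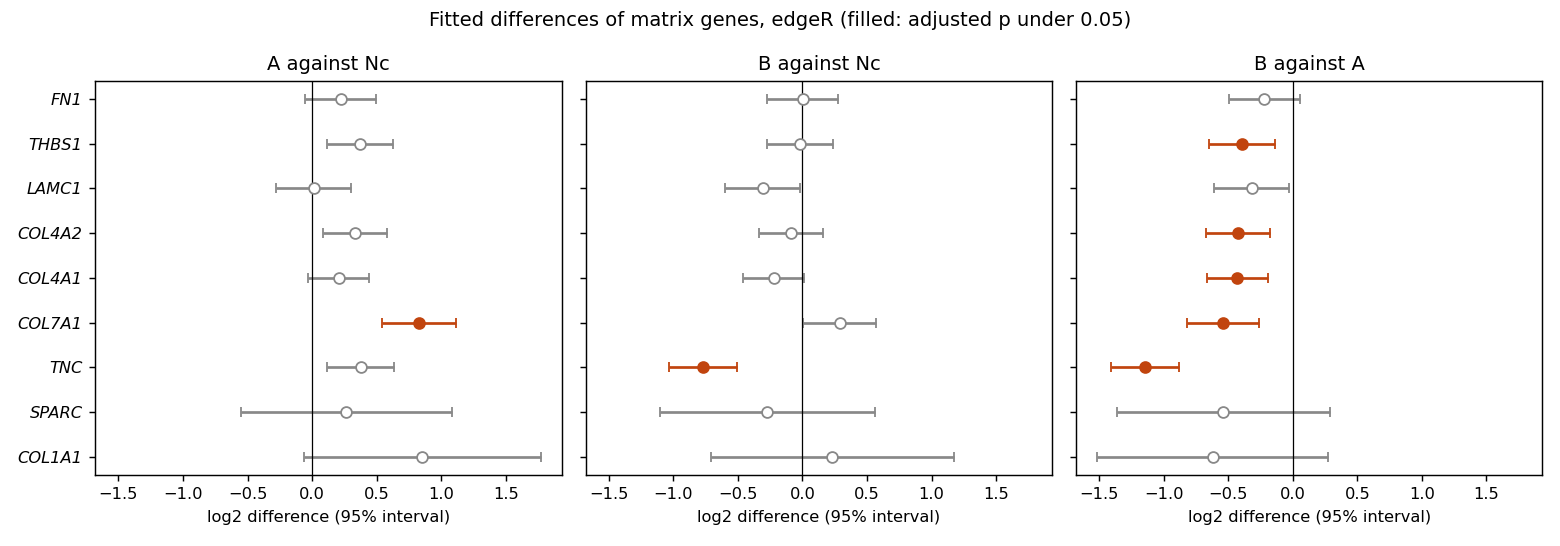
Fitted log2 differences (horizontal axis) with 95% intervals for the 9 tested members in A against Nc, B against Nc and B against A, filled where the adjusted p was under 0.05. COL7A1 is filled to the right in the first panel, TNC to the left in the second, and 5 members to the left in the third.

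The basement membrane components were examined first. COL4A1 was at 6.44, 6.18 and 5.94 FPKM in Nc1 to Nc3, at 7.63, 6.92 and 6.67 in A1 to A3 and at 5.63, 5.18 and 4.97 in B1 to B3. All 3 A libraries lay above the control and all 3 B libraries below it, with no overlap between any of the stems. Against the control the log2 differences were 0.21 in A (SE 0.11, adjusted p = 0.281) and -0.22 in B (SE 0.11, adjusted p = 0.199), neither past the threshold in edgeR's quasi-likelihood test with Benjamini-Hochberg adjustment. B was 1.35-fold lower than A (log2 -0.43, SE 0.11, adjusted p = 0.0154). With the replicate block in the fit of A and Nc alone, COL4A1 was called higher in A (0.19, adjusted p = 0.0413). The B against A call was lost without B2 (adjusted p = 0.0611) or without B3 (0.0901). After correction for GC content and gene length, COL4A1 was called lower in B than in the control (-0.29, adjusted p = 0.0351).

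COL4A2 was at 15.9, 15.3 and 15.7 FPKM in the control libraries, at 19.0, 20.1 and 19.4 in A and at 16.4, 13.2 and 14.1 in B. The A libraries stood above all others, while B overlapped the control. The log2 difference was 0.33 in A against the control (SE 0.12, adjusted p = 0.121) and -0.09 in B (adjusted p = 0.654). B was 1.34-fold lower than A (log2 -0.42, SE 0.12, adjusted p = 0.0204). In the paired fit of A and Nc, COL4A2 rose (0.31, adjusted p = 0.00145).

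The length-scaled level of COL4A2 exceeded that of its partner COL4A1 in all 9 libraries. The ratio was 2.53 ± 0.103 in the control, 2.77 ± 0.238 in A and 2.77 ± 0.191 in B (SD, n = 3), and the stems overlapped. The annotated spans of the pair overlap on opposite strands, and whether the counting used strand is not given in the sources used here.

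COL7A1, which encodes the collagen of anchoring fibrils, was the member called higher in A. It was at 8.25, 10.7 and 10.6 FPKM in the control libraries, at 15.5, 18.6 and 17.8 in A and at 12.5, 10.9 and 12.3 in B. No library of one stem reached into another, with A highest and the control lowest. COL7A1 was 1.78-fold higher in A than in the control (95% interval 1.46 to 2.16, adjusted p = 0.00322 in edgeR's quasi-likelihood test with Benjamini-Hochberg adjustment). It was 1.22-fold higher in B than in the control without passing the test (95% interval 1.00 to 1.48, adjusted p = 0.163) and 1.45-fold lower in B than in A (log2 -0.54, SE 0.13, adjusted p = 0.0115). As these are bulk RNA samples, a change in the RNA of each cell and a change in how many cells of a kind were sampled cannot be told apart. The rise in A held in every fit that left out a single library (adjusted p between 0.00164 and 0.0359), in the replicate block over all 3 stems (0.0111) and in the paired fit of A and Nc (0.81, adjusted p = 3.95e-06).

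The GC content of a gene was among the quantities that differed between libraries. Over 9727 genes, the median of the fifth of genes highest in GC content minus that of the lowest lay between -0.72 and -0.04 (log2) in the control libraries, between -0.09 and 0.51 in A and between -0.31 and 0.22 in B. COL7A1, at 64.8% GC, stood at percentile 96.7 of these genes, and COL4A2, at 62.0%, at percentile 91.5. With GC content and gene length corrected in each library, the rise of COL7A1 in A was smaller and still called (log2 0.52, adjusted p = 0.00177), and COL7A1 was called higher in B than in the control (0.31, adjusted p = 0.0144). The differences between B and A were no longer called for COL7A1 (-0.21, adjusted p = 0.0608) or COL4A2 (-0.17, adjusted p = 0.167). For COL4A2 in A against the control the value was 0.06. In the uncorrected fits that left out a single library, COL7A1 lost its call in B against A without A2 (adjusted p = 0.0547), A3 (0.0501) or B2 (0.0715). COL4A2 lost its call in B against A without A2 (0.0714), A3 (0.0687), B2 (0.102) or B3 (0.101).

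**Figure D3:**
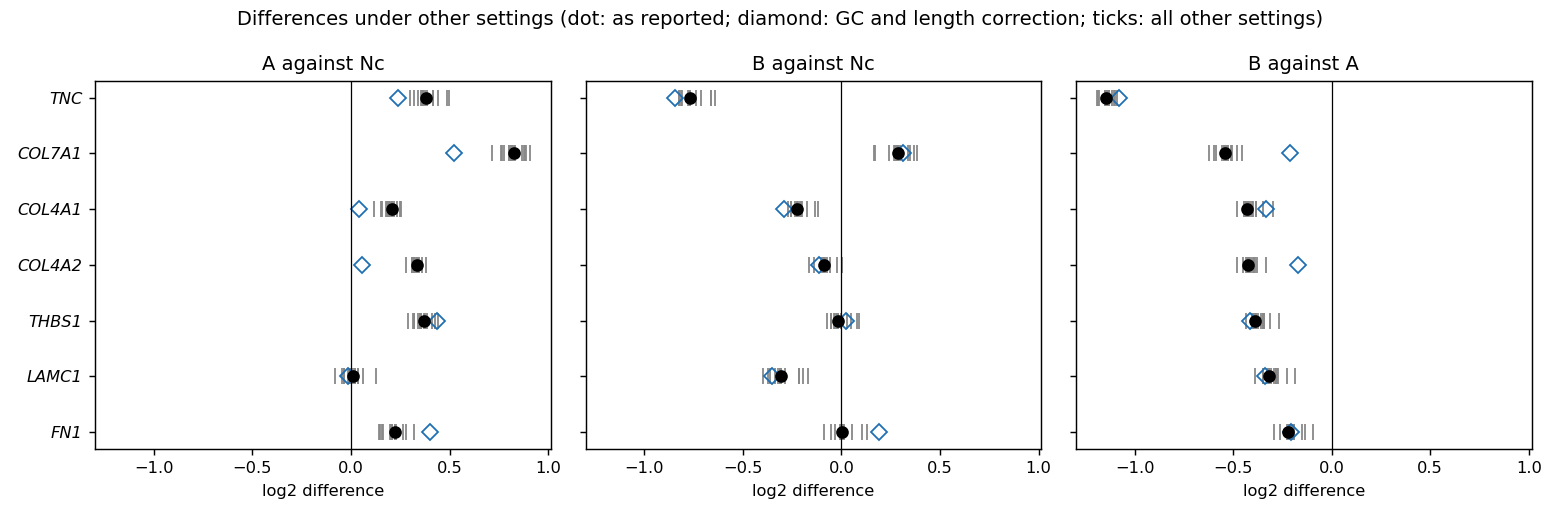
Log2 differences (horizontal axis) of the 7 abundant members in the 3 comparisons, as reported (dot), with GC content and gene length corrected (diamond) and under the other settings (ticks). The diamonds of COL7A1 and COL4A2 lie nearer 0 than the dots in A against Nc and B against A, and TNC in B stays left of 0 throughout.

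LAMC1 encodes the laminin γ1 chain, a subunit of many laminins of basement membranes. Its level was 29.3, 22.1 and 24.3 FPKM in the control libraries, 26.9, 24.1 and 24.4 in A and 23.1, 19.7 and 17.8 in B. A lay within the range of the control, and all B libraries lay below all A libraries while overlapping the control. The log2 differences were 0.01 for A against the control (SE 0.14, adjusted p = 0.976), -0.31 for B against the control (SE 0.14, adjusted p = 0.146) and -0.32 for B against A (SE 0.14, adjusted p = 0.116), so none was called. With GC content and gene length corrected, LAMC1 was called lower in B than in the control (-0.35, adjusted p = 0.0265) and than in A (-0.34, adjusted p = 0.025).

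FN1, the gene of fibronectin, was the most abundant member. Its level was 69.1, 59.0 and 64.1 FPKM in the control libraries, 76.9, 74.7 and 70.3 in A and 73.0, 54.6 and 63.5 in B. The A libraries were above the control without overlap, and B covered the control and reached into A. The difference was 0.22 on the log2 scale in A (95% interval -0.05 to 0.50, adjusted p = 0.317) and 0.00 in B (95% interval -0.27 to 0.28, adjusted p = 0.995). B against A gave -0.22 (95% interval -0.49 to 0.05, adjusted p = 0.255). The paired fit of A and Nc gave 0.20 with an adjusted p of 0.0609, short of the threshold.

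Among the matricellular members, THBS1 encodes thrombospondin 1, a secreted glycoprotein known as an activator of latent TGF-β and an inhibitor of angiogenesis. It was at 51.2, 43.8 and 44.4 FPKM in the control libraries, at 59.0, 63.0 and 56.4 in A and at 48.8, 44.5 and 43.1 in B. A lay above both other stems, and B overlapped the control. Against the control, the log2 difference was 0.37 in A (SE 0.12, adjusted p = 0.103) and -0.02 in B (adjusted p = 0.939). B was 1.31-fold lower than A (log2 -0.39, SE 0.12, adjusted p = 0.0346 in edgeR's quasi-likelihood test with Benjamini-Hochberg adjustment).

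The call of THBS1 in B against A depended on single libraries. It was lost with the replicate block over all stems (adjusted p = 0.0625) and in 6 of the 9 fits that left out a library, namely Nc3 (0.058), A1 (0.0572), A2 (0.123), A3 (0.0718), B2 (0.104) and B3 (0.158). In A against the control, THBS1 was called higher by DESeq2 (0.36, adjusted p = 0.0234), with gene length corrected (0.43, adjusted p = 0.0299), with GC content and gene length corrected (0.44, adjusted p = 0.0118) and in the paired fit (0.35, adjusted p = 0.0021).

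TNC, the gene of tenascin-C, a hexameric glycoprotein that is expressed at wound edges, had the largest difference between the treated stems of any tested member. It was at 9.70, 7.60 and 8.01 FPKM in the control libraries, at 10.4, 11.0 and 11.2 in A and at 5.42, 4.74 and 4.58 in B. The 3 stems did not overlap, with B lowest and A highest. TNC fell in B to 0.587 of the control level (95% interval 0.490 to 0.705, adjusted p = 0.00189 in edgeR's quasi-likelihood test with Benjamini-Hochberg adjustment). It was 2.21-fold lower in B than in A (log2 -1.15, SE 0.12, adjusted p = 2.46e-05). In A against the control the log2 difference of 0.38 (SE 0.12) did not pass (adjusted p = 0.103), but it passed in the paired fit of A and Nc (0.36, adjusted p = 0.0018) and with gene length corrected (0.44, adjusted p = 0.0318).

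Both TNC calls held in each of the 9 fits without a single library, at adjusted p between 0.00108 and 0.0194 against the control and between 2.15e-06 and 0.000366 against A. They also held with GC content and gene length corrected (-0.84 and -1.08). Without the 5 globin-rich libraries, TNC was at -1.13 against A (adjusted p = 0.00538) and at -0.64 against the control (adjusted p = 0.581). Only A3 and Nc3 were then left of their stems, so both p-values assume that these lone libraries vary as B1 and B2 do. On FPKM, the ratio of TNC to COL7A1 was 0.882 ± 0.256 in the control, 0.630 ± 0.0415 in A and 0.413 ± 0.0357 in B (SD, n = 3). The ratios of A and B each lay below every control ratio, and those of B below those of A.

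The scarce members varied within stems. SPARC, a collagen-binding matricellular protein, had 42, 43 and 39 counts in the control libraries, 50, 70 and 17 in A and 18, 45 and 47 in B. The stems overlapped, with A2 highest and A3 and B1 lowest. Its log2 differences were 0.27 in A (95% interval -0.55 to 1.08, adjusted p = 0.705), -0.27 in B (-1.10 to 0.56, adjusted p = 0.694) and -0.54 in B against A (-1.36 to 0.29, adjusted p = 0.361), intervals that hold changes of more than 1.5-fold. Without A2 the first of these was -0.24.

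COL1A1, the α1 chain of the fibrillar type I collagen, had 21, 17 and 33 counts in the control libraries, 28, 71 and 17 in A and 28, 29 and 31 in B. A2 alone stood out. The log2 difference in A was 0.85 (95% interval -0.07 to 1.77, adjusted p = 0.254) and was 0.01 without A2. In B it was 0.23 (-0.71 to 1.18, adjusted p = 0.773), and in B against A it was -0.62 (-1.51 to 0.28, adjusted p = 0.329) and turned to 0.22 without A2.

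COL3A1, the fibrillar type III collagen, had 27 counts in A1 and 31 in A2 and 0 in the other 7 libraries, A3 included. At these depths the upper limit for a library with 0 counts, taken as 3 counts, is 0.156 to 0.21 CPM. COL3A1 did not pass the filter on low counts and was not tested in the fit reported here. In the fit with no such filter, over 27979 genes, COL3A1 was called higher in A than in the control (adjusted p = 1.18e-07) and lower in B than in A (adjusted p = 8.98e-09) by edgeR's quasi-likelihood test, calls that rest on A1 and A2 with A3 at 0.

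The libraries with COL3A1 also held other transcripts typical of fibroblasts. The 8 fibroblast markers summed to 39 counts in A1 and 55 in A2, against 5 in A3, 3 to 10 in the control and 9 to 12 in B. The number of them with a count did not set A1 and A2 apart, with 6 in A1, A2 and B3 and 3 to 5 in the others. DCN, the gene of decorin, had 11 counts in A1 and 11 in A2 and 0 elsewhere, and LUM, the gene of lumican, had 9 and 14 and 0 elsewhere. COL6A3 had 13 and 20 counts in A1 and A2, against 0 to 5 in the others. PDGFRB had 7 counts in A2 and 0 to 1 elsewhere. The other 4 markers, THY1, FAP, PDGFRA and DPT, had 0 to 4 counts in every library and were not highest in A1 or A2. COL1A2, the partner chain of COL1A1, had 38 and 58 counts in A1 and A2, 9 in A3, 25 to 36 in the control and 6 to 31 in B. The part of these transcripts in the counts of COL3A1, COL1A1 and SPARC was not tested. Of the other markers, the sum of the 6 endothelial genes was 48 to 73 counts in the control, 27 to 52 in A and 197 to 246 in B, of which CDH5 gave 185 to 230 in B, and that of the 6 smooth muscle and pericyte genes was 33 to 41, 22 to 54 and 41 to 67.

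**Figure D4:**
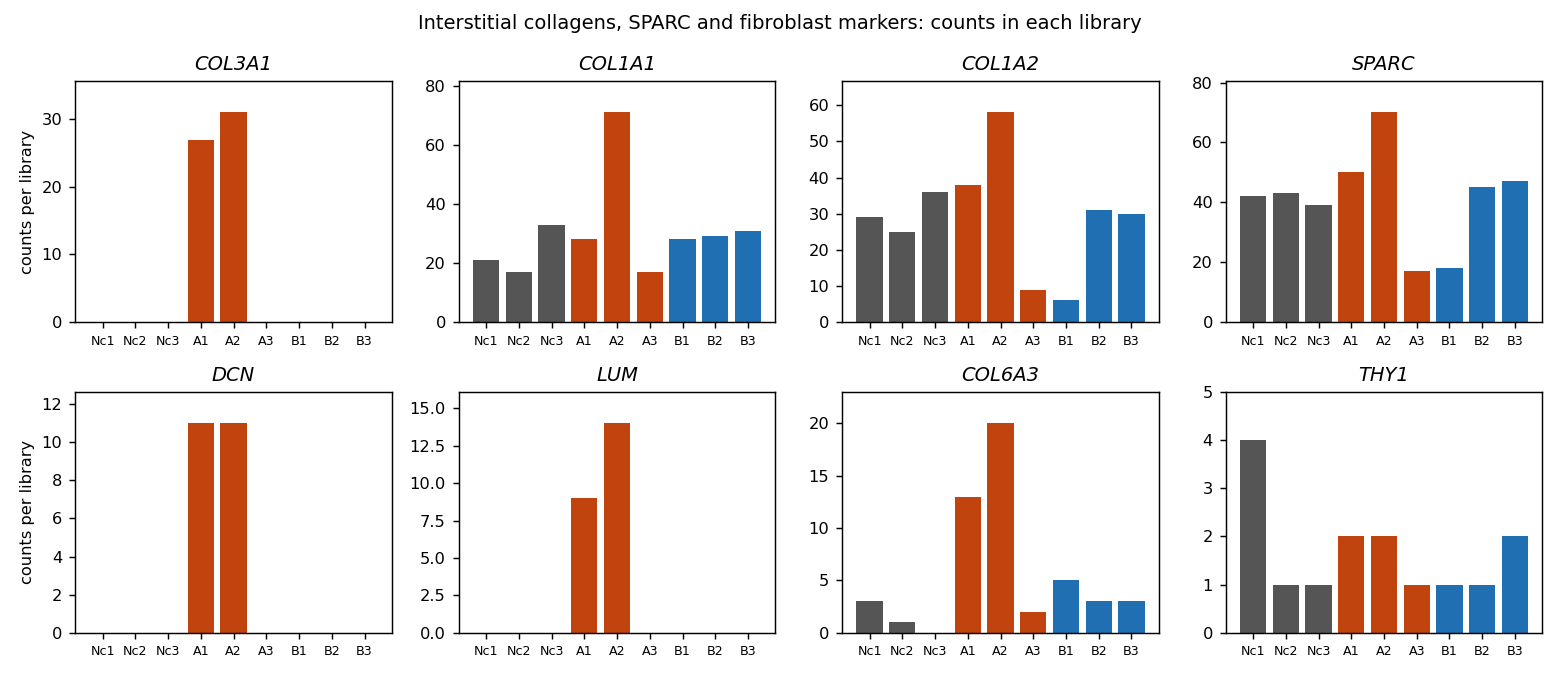
Counts (vertical axis, from 0, a scale of its own in each panel) of COL3A1, COL1A1, COL1A2, SPARC and 4 fibroblast markers in each of the 9 libraries. COL3A1, DCN and LUM have bars in A1 and A2 alone, and COL1A1, COL1A2, SPARC and COL6A3 are highest in A2.

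Leaving out A1 and A2 together ended several calls of the abundant members, and none of the called differences changed sign. COL7A1 in A against the control was then 0.87 with an adjusted p of 0.0835, with 1 library of A left and its spread taken from the other stems. In B against A, TNC was still called (-1.19, adjusted p = 0.00162), and COL7A1 (-0.58, adjusted p = 0.0905), COL4A1 (-0.35, 0.263), COL4A2 (-0.42, 0.203) and THBS1 (-0.32, 0.361) were not. Without the 5 globin-rich libraries the members called numbered 0 in A against the control, 0 in B against the control and 1 in B against A. Stem A and the control then held 1 library each and all of the spread came from B1 and B2, so these counts say little about stability. That smaller set gave log2 differences of 0.76 for COL7A1 in A against the control, and of -0.60, -0.30, -0.39 and -0.27 for COL7A1, COL4A1, COL4A2 and THBS1 in B against A.

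The control libraries differed among themselves by more than counting noise in several members. Under a chi-square test for a common rate in Nc1 to Nc3, with Benjamini-Hochberg adjustment, FN1, THBS1, COL7A1, TNC and LAMC1 varied beyond it, which is 5 of the 9 members tested. Of all 13290 genes, 56.9% did. COL4A1 and COL4A2 did not pass (adjusted p = 0.659 and 0.641). Without Nc1, 2 members passed.

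Across the 9 libraries, the genes whose log CPM were most alike to COL4A1 were SUPT5H (r = 0.97), ITGA6 (0.96), AATF (0.96), DNAJC11 (0.96) and NAV3 (0.96), out of 9728. Of the members, TNC came nearest to COL4A1 (r = 0.93, rank 43) and COL4A2 followed (r = 0.87, rank 210). For FN1 the nearest were ABL1 (r = 0.96), CCNK (0.95), SPTAN1 (0.95), SOGA1 (0.94) and NPRL3 (0.93), and the nearest member was COL4A2 (r = 0.86, rank 72). These correlations describe 9 libraries that share stems, depth and GC trends.

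The genes around the members were grouped, with earlier results of these data known, into 6 lists with 102 genes, of which 78 were tested. Over all of them, 13 were called higher and 0 lower in A against the control, 10 higher and 4 lower in B against the control, and 7 higher and 20 lower in B against A. The shares over all tested genes, against which these and the counts of single lists below are to be read, were 1.76% higher and 0.953% lower, 6.12% and 7.24%, and 8.79% and 9.25% in the same order. In the paired fit of A and Nc, 31 of 75 were higher and 11 lower, where 16.5% and 18.3% of all genes were. By list, the laminin and basement membrane genes gave 8 of 13 higher and 0 lower there, the receptors 9 and 6 of 17, the collagen-modifying genes 7 and 2 of 16, the matricellular genes 3 and 1 of 13, the TGF-β genes 3 and 2 of 11 and the collagens 1 and 0 of 5. Without A1 and A2 the totals of the fit over all stems were 3 and 0 in A against the control and 1 and 11 in B against A. Without the 5 globin-rich libraries they were 0 and 0, 1 and 0, and 1 and 4.

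Laminin and basement membrane genes beside the members gave 2 of 13 higher in A against the control (median log2 0.32, beside 0.01 over all genes). LAMB3, a laminin β chain of the epidermal basement membrane, rose from 375 ± 12.3 to 634 ± 42.1 CPM (log2 0.76, adjusted p = 0.00236). In B against the control 1 was higher and 2 lower, among them LAMA3, a laminin α chain, at -0.50 (adjusted p = 0.0229) and LAMB2, a laminin β chain, at 0.50 (0.0165). Against A, stem B had 5 lower and 1 higher (median -0.36). LAMA3 was at -0.99 (adjusted p = 0.00017) and LAMB3 at -0.57 (adjusted p = 0.0032). NID2, a nidogen that bridges laminin and collagen IV, was lower as well (-0.96, adjusted p = 0.00535).

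The receptors that bind these matrix proteins gave 5 of 17 higher and 0 lower in A against the control (median 0.23). They were the laminin-binding integrin chains ITGB4 (0.75, adjusted p = 0.00405) and ITGA3 (0.64, adjusted p = 0.00871), the proteoglycan SDC1 (0.53, adjusted p = 0.0303), the fibronectin-binding ITGA5 (0.51, adjusted p = 0.0248) and the hyaluronan receptor CD44 (0.49, adjusted p = 0.0354). In B against the control SDC4 was higher (0.55) and ITGA6 lower (-0.58). Stem B against A gave 7 lower and 1 higher (median -0.27). ITGA6 (-1.11), CD44 (-0.81), ITGA3 (-0.80) and ITGB4 (-0.76) were the lowest, with adjusted p at or below 0.000801, and DAG1, dystroglycan, was higher (0.50, adjusted p = 0.00915).

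Of the other matricellular and elastic matrix genes, 3 of 13 were higher in A against the control (median -0.00). They were CCN2 (1.46, adjusted p = 0.00559), ECM1 (1.22, adjusted p = 0.000318) and CCN1 (1.05, adjusted p = 0.000318), the first and last of which encode secreted proteins of the CCN family. In B against the control 2 were higher and 1 lower, with CCN2 at 2.35 (1.84 ± 0.244 against 9.45 ± 2.16 CPM, adjusted p = 8.76e-05), THBS3 at 1.12 (0.00624) and EFEMP1 at -0.62 (0.00893). Comparing B with A, 3 were lower and 1 higher. ECM1 (-1.05), CCN1 (-0.85) and FBN2 (-0.70) were lower and CCN2 (0.89) was higher.

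The other collagen chains gave 1 of 8 higher in A against the control, COL17A1, a transmembrane collagen of hemidesmosomes (0.50, adjusted p = 0.0429). In B against the control 2 were higher. They were COL5A1, a fibrillar collagen (0.63, adjusted p = 0.013), and COL8A1, which is not fibrillar (1.91, adjusted p = 0.0133, from 0.303 ± 0.139 to 1.14 ± 0.149 CPM). COL8A1 was scarce, with 5, 7 and 3 counts in the control libraries, 8, 14 and 11 in A and 16, 23 and 22 in B. It may have passed the filter on low counts only through B, where it was highest, so its call carries little weight. Relative to A, in B, COL5A1 was higher (0.58) and COL17A1 lower (-0.61). The list's medians were 0.42, 0.56 and -0.02.

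Genes that modify and crosslink collagen gave 2 of 16 higher in A against the control, TGM2, a transglutaminase (1.13, adjusted p = 0.0365), and SLC39A13, a zinc transporter (0.97, adjusted p = 0.00907). In B against the control 3 were higher, namely TGM2 (0.93), LOXL2, a lysyl oxidase (0.67, adjusted p = 0.00299), and P4HA2, a prolyl hydroxylase subunit (0.40). Lower in B than in A were SLC39A13 (-1.25), SERPINH1, the collagen chaperone HSP47 (-0.54, adjusted p = 0.0065), and PLOD3 (-0.54), and higher were LOXL2 (0.66) and PLOD2 (0.64), a lysyl hydroxylase. The TGF-β genes gave 0 of 11 called in A, 1 higher in B against the control (SMAD3, 0.37, adjusted p = 0.0484) and, in B against A, 1 higher (TGFB2, from 0.583 ± 0.144 to 1.68 ± 0.389 CPM, adjusted p = 0.00943) and 1 lower (SMAD7, -0.48, adjusted p = 0.0262).

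**Figure D5:**
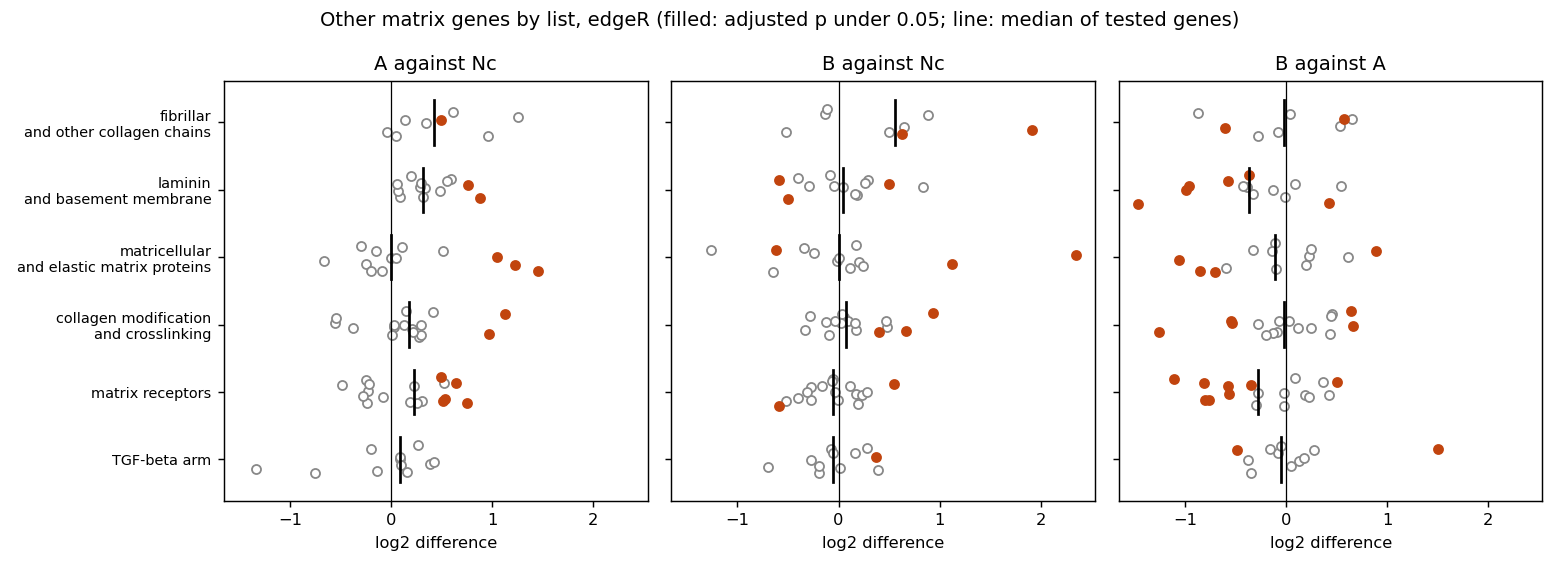
Log2 differences (horizontal axis) of the tested genes of 6 lists in the 3 comparisons, filled where the adjusted p was under 0.05, with a line at each list's median. The filled genes of A against Nc all lie right of 0, and the laminin and receptor lists have most of their filled genes left of 0 in B against A.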

How the data were processed

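Paired reads of 150 bases were made from HaCaT RNA, per the labels. FastQC, HISAT2 and StringTie are listed with GRCh38 in the submitters' processing notes, which give no roles or versions here; the strand setting is not given in the sources used here. The authors deposited whole-number counts per gene and library, not normalized, and FPKM. In the deposited FPKM each value was the count over gene length and over a library constant of 0.936 to 1.07 times the total, to within a relative difference of 2.75e-13.

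The counts of all 9 libraries were fitted with edgeR 4.0.16 in R 4.3.3 (TMM, filterByExpr, quasi-likelihood test, 3 stems in 1 fit), and p-values were adjusted by Benjamini-Hochberg over all genes tested. Scripts were tested on simulated data. Labels name no separate cultures, so p-values measure only the spread between these samples, which may be technical. Deviations from the stem means correlated over 0.1 in each same-numbered pair of A and Nc and in no same-numbered pair with B. No libraries of a stem were copies: between 2413 and 7170 genes differed in each pair. Alternatives were DESeq2 1.42.0, other scaling, no filter, replicate blocks, each stem pair alone, GC content and length corrections, and libraries left out. GC content came from GENCODE transcripts. Other steps used Python 3.11.15, pandas 2.3.3, NumPy 2.4.6 and matplotlib 3.10.9.

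The members and the lists were chosen with earlier results of these data known. The text names all 10 members, called genes of each list and comparison up to 6 (1 such gene is not reported here), and the 5 genes most like COL4A1 and FN1. Fibroblast markers, COL1A2, CDH5, HBB, KRT5 and KRT14 were named after their values were seen. Intervals and floors cover the error of the fit and of counting.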

Additional observations from a re-analysis of the deposited data

Results flagged for a closer look

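Between the treated stems, 5 members differed by a test of that difference in edgeR, each lower in B than in A. The log2 differences were -1.15 for TNC, -0.54 for COL7A1, -0.43 for COL4A1, -0.42 for COL4A2 and -0.39 for THBS1. The TNC difference held in each fit that left out a single library, and each of the other 4 was lost in at least 2 of these 9 fits. With GC content and gene length corrected, COL7A1 (-0.21, adjusted p = 0.0608 in edgeR) and COL4A2 (-0.17, adjusted p = 0.167) were no longer called, and TNC, COL4A1 and THBS1 were.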

How the results depend on the processing

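In A against Nc, 376 genes and 1 member were called. The genes numbered 763 with DESeq2, 992 with no filter on low counts, 583 with gene length corrected and 567 with GC content and gene length corrected, and the members 2, 2, 3 and 2, of which COL3A1 was the one added with no filter. With the replicate block in the fit of all stems, 244 genes were called, and with it in the fit of A and Nc alone 4601 genes and 5 members. In B against Nc, 1850 genes and 1 member were called, and 3184 and 4 with GC content and gene length corrected. In B against A, 2498 genes and 5 members were called, and with that correction 4070 genes. The replicate block over all stems ended the THBS1 call in B against A (adjusted p = 0.0625 in edgeR) and changed no other member's call; over all stems the same-numbered pairs had correlations from -0.60 to 0.81. The cause of these shifts was not tested.

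Leaving out 1 library at a time gave 101 to 910 genes in A against Nc, 489 to 2088 in B against Nc and 1160 to 3197 in B against A, with 1 to 2, 1 to 1 and 2 to 6 members. The member added at the upper ends of 2 and 6 was COL3A1, which then passed the filter on low counts. Its counts lay in A1 (27) and A2 (31) alone. None of the 9 members tested in the main fit gained a call. Within the control, 2 to 5 members varied beyond counting noise. Without A1 and A2, 42 genes and 0 members were called in A against Nc and 774 genes and 1 member in B against A. Without the 5 globin-rich libraries the numbers were 30, 57 and 460 genes and 0, 0 and 1 members, with 1 library left in A and in the control.

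Signs changed only for members that were not called. LAMC1 in A against Nc (0.01) was -0.00343 with DESeq2, -0.00361 with its size factors, -0.00444 in the paired fit, -0.0481 with no filter, -0.0083 with only the groups compared fitted, -0.0137 with the GC and length correction and -0.0338 without A1 and A2. FN1 in B against Nc (0.00) was -0.00895 with DESeq2, -0.051 with no filter and -0.00287 with the block. THBS1 in B against Nc (-0.02) was 0.0802 with gene length corrected, 0.0232 with GC content too and 0.0885 without the globin-rich libraries, and COL4A2 (-0.09) was 0.00317 with gene length corrected. Without A1 and A2, COL1A1 and SPARC were -0.25 and -1.05 in A against Nc and 0.47 and 0.77 in B against A. Without the globin-rich libraries they were -0.72 and -0.96, and 0.49 and 0.62, with COL1A1 at -0.22 in B against Nc. Leaving out 1 library gave ranges from -0.0822 to 0.13 for LAMC1 and -0.24 to 0.64 for SPARC in A against Nc. In B against Nc they were -0.0887 to 0.11 for FN1, -0.0535 to 0.0498 for THBS1 and -0.43 to 0.0267 for SPARC, and in B against A -0.96 to 0.22 for COL1A1. Library totals in place of the FPKM scaling moved each of the 30 mean levels by less than 1 SD. At 17 to 71 counts, the depth limits what COL1A1 and SPARC can show.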
